A study of Mus musculus with 12 samples.

Results

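The 33 genes described here mark T cells, regulatory T cells and natural killer (NK) cells, the lymphocytes that carry an antigen receptor or kill target cells on contact, and they were followed in whole adipose tissue of mice. They were chosen by symbol as known markers of these cells, and all 33 were found among the 53431 gene identifiers of the count table. They fall into the T cell receptor and CD3 chains (7 genes), co-receptors (3), kinases and an adaptor of receptor signalling (3), adhesion and costimulatory molecules (5), regulatory T cell genes (3), cytokine receptors (2), NK receptors (3), cytotoxic effectors (5) and effector transcription factors (2). The study compared 3 groups of 4 libraries each. One group came from Bbs2-/- mice fed Genz-667161, an inhibitor of glucosylceramide synthase (GCSi), the enzyme that makes glucosylceramide, at 0.033% of the feed from 2 months of age. Another came from untreated Bbs2-/- mice and the last from wild-type (WT) mice. C57BL/6 x 129/SvJ was the background of all mice, which were 6 months old when the fat was collected. Bbs2 encodes a subunit of the BBSome, which carries membrane proteins through primary cilia, and mutations in the human gene cause Bardet-Biedl syndrome. The labels name neither the fat depot nor the sex, and do not say whether each replicate was a separate mouse, so a p-value here reflects how these libraries varied, which may be technical variation.

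T cells recognise peptides held by MHC molecules through a receptor of paired alpha and beta chains, which signals through the CD3 subunits and the zeta chain to the kinases Lck and Zap70 and the adaptor Lat. CD4 T cells direct other immune cells, CD8 T cells and NK cells kill with perforin and granzymes, and Foxp3-positive regulatory T cells restrain both. Lean visceral fat of mice is known for its resident regulatory T cells, whereas in obese fat CD8 T cells, NK cells and macrophages are known to accumulate.

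The 12 libraries held 16317865 to 20224200 estimated counts, so that 1 CPM, a count per 1e6 counts of the scaled library size, stood for 14.8 to 21.2 counts. Adipocyte markers, 8 genes from Adipoq and Plin1 on, summed to 27482 to 41143 CPM in treated, 14231 to 17655 CPM in untreated and 24668 to 43481 CPM in WT libraries. Bbs2 itself stood at 53.7 to 65.4 CPM in the treated and 53.7 to 70.6 CPM in the untreated libraries labelled Bbs2-/-, against 12.1 to 12.7 CPM in WT libraries. Its RNA was therefore higher in the libraries labelled as lacking the gene, and which part of the gene is altered is not given in the labels. The library labelled WT 1 held 1082 CPM of the epididymal gene Crisp1, which was at most 0.291 CPM in the other 11. Foxj1, a gene of ciliated epithelium, reached 7.97 and 7.41 CPM in treated libraries 1 and 3 and 2.61 and 9.53 CPM in WT 1 and WT 4, against at most 0.135 CPM in the rest. WT 2 and WT 3 have library names of another type in the labels than the other 10. Results were therefore also computed without the 4 libraries with Foxj1 RNA and without WT 2 and WT 3.

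The T and NK cell genes were a small part of this RNA. Their 33 levels summed to 36.2 to 71.8 CPM in treated, 102.2 to 139.6 CPM in untreated and 47.6 to 76.8 CPM in WT libraries. Without Il7r, the most abundant member in untreated Bbs2-/- fat, the sums were 34.1 to 67.2, 56.9 to 85.9 and 41.2 to 44.5 CPM in the same 3 groups. The median count of a member over the 12 libraries ran between 1.5 for Ifng and 164 for Il7r, and 19 of the 33 had a median under 20. Ifng, which encodes interferon gamma, Ctla4 and Cd8b1 were too low to be tested, and 30 members passed the filter on low counts. On the deposited log2 FPKM scale, which corrects for gene length, the highest members in untreated Bbs2-/- fat were Il7r at 4.10 ± 0.23, Trbc2 at 2.58 ± 0.10 and Cd2 at 2.36 ± 0.31 (SD, n = 4). In WT fat the order of levels was led by Cd247 at 2.65 ± 0.43, Cd2 at 2.29 ± 0.63 and Il7r at 2.14 ± 1.02, and these 3 lay within 1 SD of each other. In treated Bbs2-/- fat Cd247 led with 3.0 ± 0.14, followed by Trbc2 at 2.13 ± 0.46 and Cd2 at 2.02 ± 0.18, which did not differ beyond their spread. In bulk tissue fewer cells of a type and less RNA per cell cannot be told apart.

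In untreated Bbs2-/- fat, 13 of the 30 tested members were higher than in WT fat and Cd247 was lower (edgeR quasi-likelihood test, Benjamini-Hochberg adjusted p under 0.05). The share called higher was 43.3% of the tested members, against 19.6% of all 15968 tested genes, and 19.7% of all genes were called lower. The 13 were Cd3d, Trac, Trbc1 and Trbc2 of the receptor complex, the signalling genes Lck and Lat, the inhibitory receptor Cd5, the cytokine receptors Il2rb and Il7r, the NK receptors Klrb1c and Klrk1, the granule gene Nkg7 and the transcription factor Eomes. Among them Trac, Cd5, Klrb1c and Eomes passed the filter on low counts only because of the untreated libraries, where they were high. The median log2 fold change of the 30 was 1.26, against -0.019 over all tested genes. All 4 untreated Bbs2-/- libraries lay above all 4 WT libraries for 16 tested members, or 53.3%, against 19.5% of all tested genes. Without WT 2 and WT 3, 7 members were called, 6 higher and Cd247 lower, and without untreated library 2 there were 10. Of all genes, 6263 were called in the main fit, 3417 without WT 2 and WT 3, and 4951 to 7212 on leaving out 1 library.

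With the inhibitor, 7 of the 30 members were lower than in untreated Bbs2-/- fat and Cd247 was higher. The 7 were Trac, Lat, Il7r, Klrb1c, Ncr1, Prf1 and Eomes. Of these, Trac, Klrb1c, Prf1 and Eomes passed the filter on low counts only because of the untreated libraries, where they were high. The 7 made up 23.3% of the tested members, close to the 18.8% of all tested genes that were called lower, while 18.5% of all genes were called higher. The count alone therefore does not set these genes apart from the rest of the transcriptome. The median log2 fold change of the 30 was -0.75, against 0.032 over all tested genes. All 4 treated libraries lay below all 4 untreated ones for 10 tested members, or 33.3%, against 20.7% of all tested genes. Treated library 3 held the highest level among treated libraries for many T cell genes, and without it 12 members were called. Without the 4 libraries with Foxj1 RNA, 2 of which were treated, 16 members were called, 15 of them lower, and the 8 gained were Cd4, Zap70, Cd5, Il2rb, Klrk1, Nkg7, Gzma and Gzmb (adjusted p between 0.0103 and 0.0495). Of all genes, 5947 were called in either direction in the main fit and 4614 to 6611 on leaving out 1 library. The number for all genes without the libraries with Foxj1 RNA is not given here, so the gain in members cannot be set against it. Both comparisons use the same 4 untreated libraries, so their values are given side by side and are not independent.

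**Figure D1:**
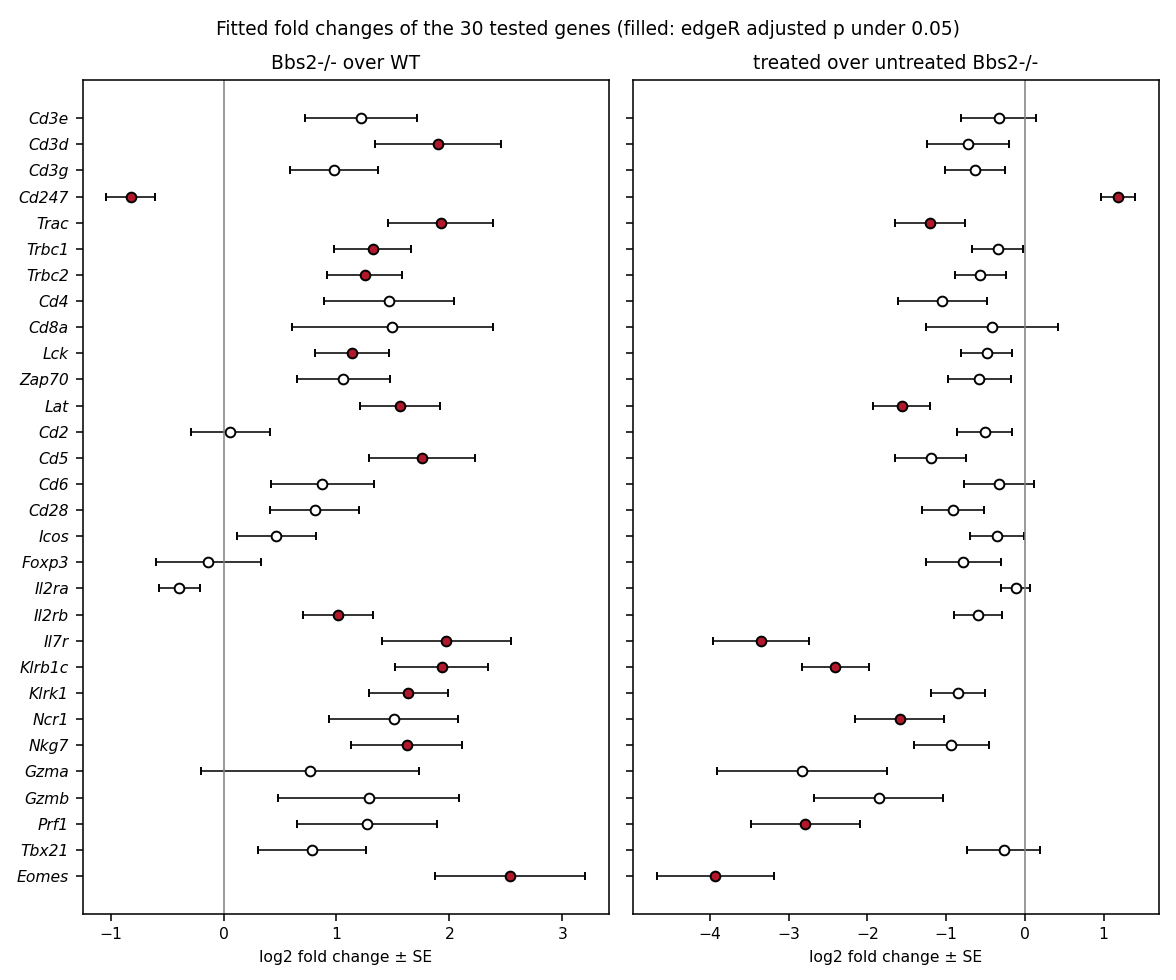
Fitted log2 fold change with its standard error for each of the 30 tested T and NK cell genes, for untreated Bbs2-/- over WT (left) and for treated over untreated Bbs2-/- (right), with filled points where the edgeR adjusted p was under 0.05. In the left panel 13 filled points lie above 0 and Cd247 lies below, and in the right panel 7 filled points lie below 0 and Cd247 lies above.

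Of the 7 chains of the T cell receptor complex, Trac, Trbc1, Trbc2 and Cd3d were higher in untreated Bbs2-/- fat than in WT fat. Trac, the constant region of the alpha chain, had 0.621, 0.544, 1.06 and 0.367 CPM in treated Bbs2-/- fat, 1.08, 1.24, 2.25 and 1.46 CPM in untreated Bbs2-/- fat and 0.163, 0.541, 0.597 and 0.291 CPM in WT fat. Every untreated library was above every WT library and every treated library, with treated library 3 just under the lowest untreated one. The log2 fold change of Trac was 1.92 ± 0.47 (SE; adjusted p = 0.00678) for untreated Bbs2-/- over WT, and this call held under every alternative tried. For treated over untreated Bbs2-/- it was -1.21 ± 0.44 (SE; adjusted p = 0.0488), close to the threshold. Leaving out any 1 of 10 libraries ended that call (WT 2, WT 3, WT 4, all 4 untreated, and treated 1, 2 and 4), with adjusted p-values between 0.0521 and 0.149. Cd3d, a signalling subunit, had 0.621, 0.599, 1.38 and 0.367 CPM in treated Bbs2-/- fat, 1.08, 2.03, 1.1 and 0.708 CPM in untreated Bbs2-/- fat and 0.272, 0.135, 0.663 and 0.233 CPM in WT fat. The untreated libraries were all above the WT ones and overlapped the treated ones, and the log2 fold changes were 1.90 ± 0.56 (SE; adjusted p = 0.0179) over WT and -0.72 ± 0.52 (SE; adjusted p = 0.296) for treated over untreated. The first of these was no longer called without WT 2, WT 4 or untreated library 2, at adjusted p-values of 0.052, 0.0504 and 0.0629, nor without the 4 libraries with Foxj1 RNA (1.59, adjusted p = 0.106).

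Cd3e and Cd3g, the other CD3 subunits, did not pass the test in either comparison. Cd3g had 1.4, 0.98, 2.06 and 0.787 CPM in treated Bbs2-/- fat, 1.65, 3.06, 1.65 and 1.75 CPM in untreated Bbs2-/- fat and 1.09, 0.608, 1.53 and 0.872 CPM in WT fat. Its untreated libraries did not overlap the WT ones, although the log2 fold change of 0.98 ± 0.39, adjusted p = 0.0633 missed the threshold, and it was called at 0.0436 without WT 3. Cd3e had 0.88, 1.42, 2.01 and 0.682 CPM in treated Bbs2-/- fat, 1.75, 2.87, 1.15 and 0.519 CPM in untreated Bbs2-/- fat and 0.762, 0.743, 0.597 and 0.581 CPM in WT fat. The untreated libraries spread widely, with library 4 below all WT libraries, and without it the log2 fold change over WT of 1.22 ± 0.50, adjusted p = 0.0707, became 1.54 with an adjusted p of 0.0206. Treated over untreated, the log2 fold changes were -0.33 ± 0.48, adjusted p = 0.623 for Cd3e and -0.63 ± 0.38, adjusted p = 0.216 for Cd3g. The Cd3e value turned to 0.107 without untreated library 2.

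Trbc1 and Trbc2, the alternative constant regions of the beta chain, lie next to each other on chromosome 6 (mm10, 41538218 to 41539881 and 41546730 to 41548352, plus strand). Their transcripts are 95.3% identical over 512 aligned bases, and none of their 12 deposited values was a whole number, so reads shared by both were split between them and their separate levels are uncertain. The first 120 bases of the reference transcript, printed here because no read within it can be assigned to one gene, are the same in both:
Trbc1 and Trbc2: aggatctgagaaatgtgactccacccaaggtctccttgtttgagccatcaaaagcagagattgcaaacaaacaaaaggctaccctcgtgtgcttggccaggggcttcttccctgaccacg
Trbc1 had 1.03, 0.708, 1.16 and 0.629 CPM in treated Bbs2-/- fat, 0.928, 1.48, 1.25 and 0.85 CPM in untreated Bbs2-/- fat and 0.381, 0.608, 0.398 and 0.407 CPM in WT fat. The WT libraries were the lowest 4 of the 12, and treated and untreated libraries overlapped. Trbc2 had 2.07, 2.29, 3.28 and 1.21 CPM in treated Bbs2-/- fat, 2.94, 3.46, 3.19 and 3.49 CPM in untreated Bbs2-/- fat and 1.8, 1.08, 1.79 and 0.814 CPM in WT fat, with all untreated libraries above WT and treated library 3 within the untreated range. For untreated Bbs2-/- over WT the log2 fold changes were 1.32 ± 0.34 (SE; adjusted p = 0.00951) for Trbc1 and 1.25 ± 0.33 (SE; adjusted p = 0.0114) for Trbc2. For treated over untreated Bbs2-/- they were -0.35 ± 0.32, adjusted p = 0.43 and -0.56 ± 0.33, adjusted p = 0.195, so neither passed. Trbc1 was not called over WT without the 4 libraries with Foxj1 RNA (adjusted p = 0.0771), nor Trbc2 without WT 2 and WT 3 (adjusted p = 0.0577).

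Cd247, the zeta chain that couples both the T cell receptor and several NK receptors to signalling, went the other way. It had 10.8, 10.7, 11.2 and 8.97 CPM in treated Bbs2-/- fat, 3.97, 4.99, 4.54 and 4.72 CPM in untreated Bbs2-/- fat and 7.84, 4.8, 11.3 and 8.31 CPM in WT fat. The untreated libraries were the lowest, apart from WT 2, which lay within their range, and all treated libraries were above them. The log2 fold changes were -0.82 ± 0.21 (SE; adjusted p = 0.0101) for untreated Bbs2-/- over WT and 1.19 ± 0.22 (SE; adjusted p = 0.00133) for treated over untreated. The first was not called without the 4 libraries with Foxj1 RNA (adjusted p = 0.0615), with 2 libraries left in WT and in treated fat. Of the 5329 exonic bases of Cd247 on chromosome 1 (mm10, 165788681 to 165877277, plus strand), 3007 overlap exons of Pou2f1 on the opposite strand, and 4 of its 12 values were whole numbers. Whether the counting used strand is not stated in the labels, so reads of Pou2f1 cannot be told apart from those of Cd247. Pou2f1, a ubiquitous transcription factor, did not pass the test in either comparison, with log2 fold changes of 0.28 ± 0.19, adjusted p = 0.264 over WT and -0.02 ± 0.19, adjusted p = 0.934 with the inhibitor.

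**Figure D2:**
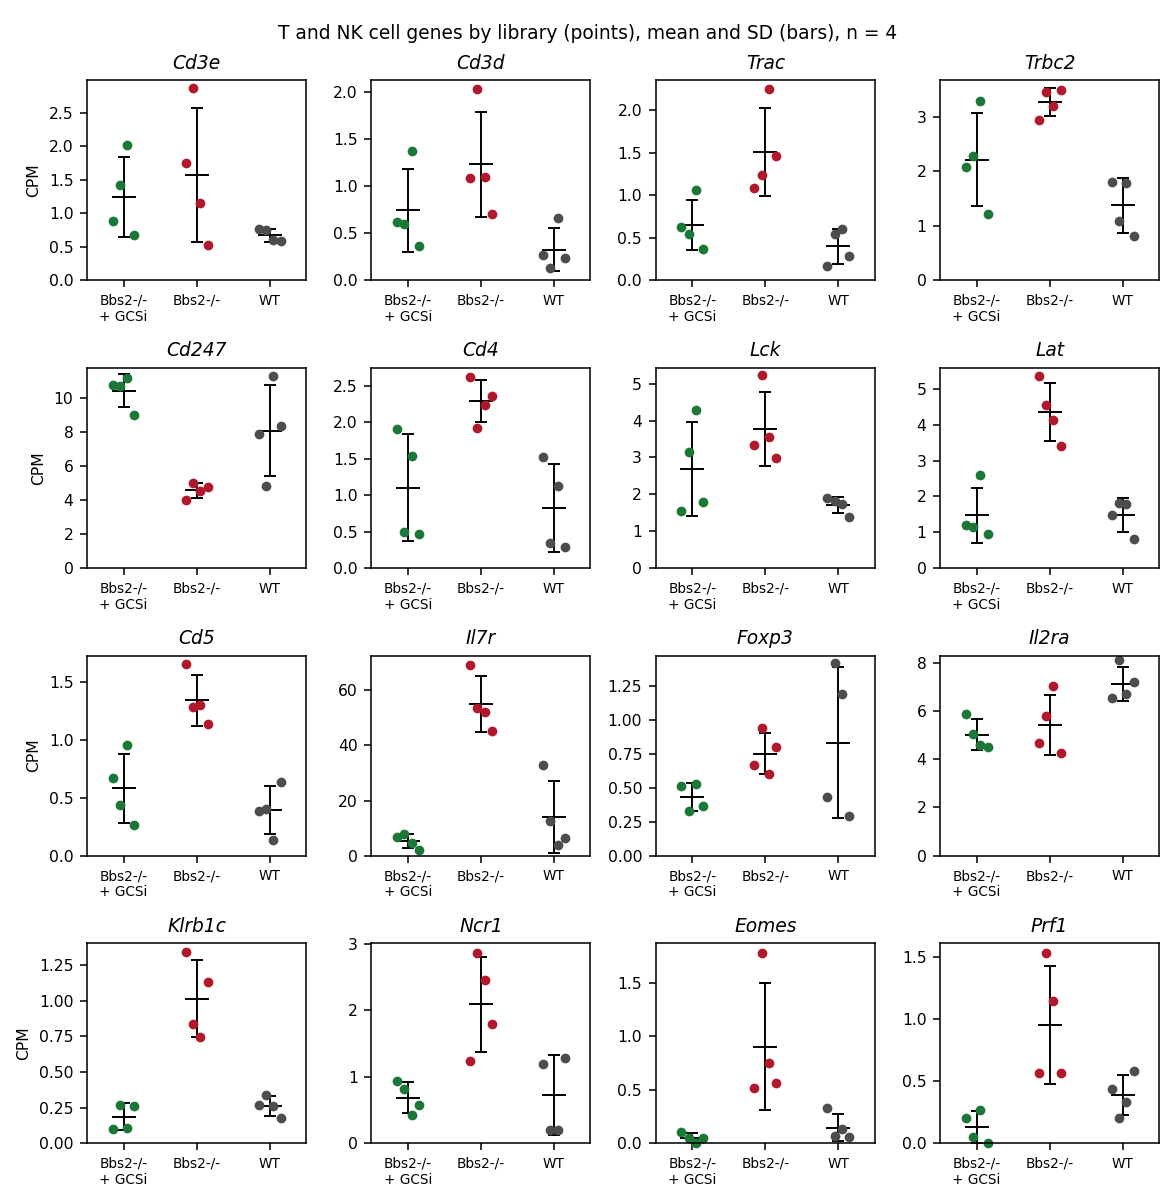
Level of 16 T and NK cell genes in each of the 12 libraries, in CPM on linear axes from 0, with treated Bbs2-/-, untreated Bbs2-/- and WT libraries from left to right and the mean and SD of 4 libraries as black bars. Il7r, Klrb1c, Eomes, Lat, Trac and Cd5 are highest in all 4 untreated Bbs2-/- libraries, Cd247 is lower there than in the treated libraries, and Il2ra and Foxp3 overlap between untreated Bbs2-/- and WT.

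The co-receptors bind MHC class II (CD4) or class I (CD8) next to the T cell receptor. Neither of the tested co-receptors passed in either comparison. Cd4 had 1.91, 0.49, 1.53 and 0.472 CPM in treated Bbs2-/- fat, 2.63, 1.93, 2.25 and 2.36 CPM in untreated Bbs2-/- fat and 1.52, 0.338, 1.13 and 0.291 CPM in WT fat. All untreated libraries were above all others, narrowly in the case of treated library 1, and the WT and treated libraries each fell into a higher and a lower pair. Cd4 had log2 fold changes of 1.47 ± 0.58 (SE; adjusted p = 0.061) for untreated over WT and -1.05 ± 0.56 (SE; adjusted p = 0.163) for treated over untreated. The first passed in DESeq2 and limma-voom (adjusted p = 0.0354 and 0.0223) and without WT 1 or the 4 libraries with Foxj1 RNA (adjusted p = 0.0224 and 0.027), and the second passed in limma-voom (adjusted p = 0.0499) and without the 4 libraries with Foxj1 RNA (0.0103). Cd8a had 0.155, 0.599, 2.75 and 0.42 CPM in treated Bbs2-/- fat, 0.412, 2.87, 1.5 and 0.472 CPM in untreated Bbs2-/- fat and 0.926, 0.203, 0.464 and 0.233 CPM in WT fat. All 3 groups overlapped, and the log2 fold changes were 1.49 ± 0.89, adjusted p = 0.204 and -0.42 ± 0.84, adjusted p = 0.732. The second turned to 0.277 without untreated library 2. Cd8b1, the beta chain of CD8, was too low to test, with 0.218 to 1.53 CPM in treated, 0.206 to 1.10 CPM in untreated and 0.0676 to 0.327 CPM in WT libraries.

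Of the signalling genes, Lat and Lck were higher in untreated Bbs2-/- fat than in WT fat, and Lat was lower with the inhibitor. Lat, the membrane adaptor on which Zap70 assembles the signalling complex and which mast cells, NK cells and platelets also use, had 1.19, 1.14, 2.59 and 0.944 CPM in treated Bbs2-/- fat, 5.36, 4.55, 4.14 and 3.4 CPM in untreated Bbs2-/- fat and 1.47, 1.82, 1.79 and 0.814 CPM in WT fat. The untreated libraries were above all 8 others, and among the treated libraries number 3 stood apart at the top. Lat gave log2 fold changes of 1.56 ± 0.36 (SE; adjusted p = 0.00498) for untreated over WT and -1.57 ± 0.36 (SE; adjusted p = 0.00504) for treated over untreated, and both calls held under every alternative tried. Lck, the kinase bound to CD4 and CD8 that starts receptor signalling, had 1.55, 3.16, 4.29 and 1.78 CPM in treated Bbs2-/- fat, 3.35, 5.24, 3.54 and 2.97 CPM in untreated Bbs2-/- fat and 1.91, 1.82, 1.73 and 1.4 CPM in WT fat. Its untreated libraries were above the WT ones and overlapped the treated ones. Its log2 fold changes were 1.14 ± 0.33 (SE; adjusted p = 0.0172) and -0.49 ± 0.32 (SE; adjusted p = 0.262), and the first missed the threshold without untreated library 2 (adjusted p = 0.0544) or without WT 2 and WT 3 (0.09). Zap70, the kinase that binds phosphorylated CD3 and zeta chains, had 0.931, 0.49, 1.48 and 0.367 CPM in treated Bbs2-/- fat, 1.19, 1.24, 1.25 and 1.23 CPM in untreated Bbs2-/- fat and 0.436, 0.676, 0.531 and 0.698 CPM in WT fat. Its untreated libraries were tightly grouped above WT, while the log2 fold changes were 1.06 ± 0.41, adjusted p = 0.0589 over WT and -0.58 ± 0.40, adjusted p = 0.281 with the inhibitor. Zap70 was called higher over WT without treated library 3 or 4 (adjusted p = 0.0343 and 0.0382), which enter only the shared estimate of spread, and in the fit of those 2 groups alone (0.0184). With the inhibitor its log2 fold change without the 4 libraries with Foxj1 RNA was -1.485, with an adjusted p of 0.0204.

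Among the adhesion and costimulatory molecules, Cd5 alone of 5 was called over WT and none was called with the inhibitor. Cd5, an inhibitory receptor that scales with receptor signal strength, had 0.673, 0.436, 0.953 and 0.262 CPM in treated Bbs2-/- fat, 1.65, 1.28, 1.3 and 1.13 CPM in untreated Bbs2-/- fat and 0.381, 0.405, 0.133 and 0.64 CPM in WT fat. The untreated libraries were above all others. Its log2 fold changes were 1.76 ± 0.47 (SE; adjusted p = 0.0114) over WT and -1.20 ± 0.45 (SE; adjusted p = 0.0544) with the inhibitor. The first missed the threshold without WT 2 and WT 3 (adjusted p = 0.0955), and the second, just above it, passed without WT 3 or treated library 3 (0.0381 and 0.0327) and in DESeq2 and limma-voom (0.0388 and 0.0235). Cd2, an adhesion molecule that binds CD48 in mice and is also found on NK cells, had 3.93, 2.89, 3.39 and 2.78 CPM in treated Bbs2-/- fat, 3.14, 5.53, 4.29 and 5.52 CPM in untreated Bbs2-/- fat and 2.34, 8.11, 2.92 and 4.42 CPM in WT fat. The highest and the lowest value were both in WT, and the log2 fold change over WT was 0.06 ± 0.35, adjusted p = 0.909, with -0.26 without the 4 libraries with Foxj1 RNA. Cd6, which binds the adhesion molecule CD166, had 1.86, 2.94, 1.96 and 0.367 CPM in treated Bbs2-/- fat, 2.01, 2.62, 2.3 and 2.03 CPM in untreated Bbs2-/- fat and 0.926, 1.55, 1.06 and 1.34 CPM in WT fat. All untreated libraries were above WT, and treated library 4 was far below the other treated ones. Without it the log2 fold change of Cd6 over WT, 0.87 ± 0.46, adjusted p = 0.149 in all libraries, was 0.876 with an adjusted p of 0.0216. Cd28, the main costimulatory receptor, and Icos, its inducible relative, overlapped between all groups, with log2 fold changes over WT of 0.81 ± 0.39, adjusted p = 0.124 and 0.47 ± 0.35, adjusted p = 0.31. Without WT 1 that of Cd28 was 1.22 with an adjusted p of 0.0248, and without the 4 libraries with Foxj1 RNA it was 1.44 with 0.0425. With the inhibitor the log2 fold changes were -0.51 ± 0.35, adjusted p = 0.278 for Cd2, -0.33 ± 0.45, adjusted p = 0.601 for Cd6, -0.92 ± 0.39, adjusted p = 0.0864 for Cd28 and -0.36 ± 0.34, adjusted p = 0.444 for Icos.

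The regulatory T cell genes did not pass the test in either comparison. Foxp3, the transcription factor that defines regulatory T cells, had 0.517, 0.327, 0.529 and 0.367 CPM in treated Bbs2-/- fat, 0.67, 0.939, 0.599 and 0.803 CPM in untreated Bbs2-/- fat and 0.436, 1.42, 1.19 and 0.291 CPM in WT fat. The WT libraries were split, with WT 2 and WT 3 above and WT 1 and WT 4 below all untreated libraries, while the treated libraries were all below the untreated ones. Foxp3 had log2 fold changes of -0.13 ± 0.47 (SE; adjusted p = 0.844) over WT and -0.78 ± 0.48 (SE; adjusted p = 0.224) with the inhibitor. The value over WT became 1.05 without WT 2 and WT 3 (adjusted p = 0.147) and 0.247 and 0.091 without either of them alone. Without the 4 libraries with Foxj1 RNA, which leaves WT 2 and WT 3, it was -0.80 (adjusted p = 0.128). Exons of Foxp3 overlap Ccdc22 and Ppp1r3f on the opposite strand by 590 and 266 bases and Flicr on the same strand by 853 bases. The reads of Foxp3 may include theirs, although all 12 of its deposited values were whole numbers, and this was not tested. Il2ra, the high-affinity chain of the interleukin-2 receptor, which activated T cells and other immune cells also carry, had 5.9, 5.06, 4.6 and 4.51 CPM in treated Bbs2-/- fat, 4.69, 5.78, 7.04 and 4.25 CPM in untreated Bbs2-/- fat and 6.53, 8.11, 6.7 and 7.21 CPM in WT fat. Its WT libraries were above all treated ones and overlapped the untreated ones. Il2ra had log2 fold changes of -0.39 ± 0.18 (SE; adjusted p = 0.106) over WT and -0.12 ± 0.18 (SE; adjusted p = 0.653) with the inhibitor, the smallest standard errors among the 30 members. Without untreated library 3 the value over WT was -0.51 with an adjusted p of 0.0487, and the one with the inhibitor was 0.01. Ctla4, an inhibitory receptor of regulatory and activated T cells, ranged over 0.109 to 0.529 CPM in treated, 0.399 to 0.567 CPM in untreated and 0 to 0.676 CPM in WT libraries, which is too low to test.

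Il7r, the interleukin-7 receptor alpha chain that keeps naive and memory T cells and innate lymphoid cells alive, had the largest level among the members in untreated Bbs2-/- fat and a large difference in both comparisons. It had 6.93, 7.84, 4.66 and 2.1 CPM in treated Bbs2-/- fat, 69.2, 53.8, 52.1 and 45.2 CPM in untreated Bbs2-/- fat and 33, 12.4, 3.98 and 6.45 CPM in WT fat. All untreated libraries were above all others, WT 1 was far above the other WT libraries, and the treated libraries lay within or below the WT range. On the log2 scale Il7r differed by 1.97 ± 0.57 (SE; adjusted p = 0.0179) for untreated over WT and -3.35 ± 0.61 (SE; adjusted p = 0.00161) for treated over untreated. The second held under every alternative tried. The first missed the threshold without WT 2 and WT 3 (adjusted p = 0.119) and with no filter on low counts (0.0554). Macrophage markers moved with it, and Il7r per 1000 CPM of macrophage markers was 4.18 to 7.44 in treated, 7.06 to 11.5 in untreated and 6.46 to 18.9 in WT libraries, so on that scale the groups overlapped. The part of macrophage RNA in the Il7r difference was not tested. Il2rb, the chain shared by the receptors of interleukin-2 and interleukin-15 on T and NK cells, had 4.4, 4.19, 7.04 and 2.52 CPM in treated Bbs2-/- fat, 7.37, 8.25, 7.19 and 4.67 CPM in untreated Bbs2-/- fat and 4.96, 2.91, 2.99 and 2.73 CPM in WT fat. WT 1 lay within the untreated range and the other WT libraries below it. Its log2 fold changes were 1.01 ± 0.31 (SE; adjusted p = 0.0225) over WT and -0.60 ± 0.31 (SE; adjusted p = 0.148) with the inhibitor. The first was lost on leaving out WT 2, WT 3, WT 4, untreated 1 or untreated 2, with adjusted p-values between 0.0508 and 0.0613, and was 0.172 without both WT 2 and WT 3. The second passed without treated library 3, at -0.89 and 0.0399.

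Of the NK receptors, Klrb1c and Klrk1 were higher in untreated Bbs2-/- fat than in WT fat, and Klrb1c and Ncr1 were lower with the inhibitor. Klrb1c, which encodes the NK1.1 antigen, had 0.103, 0.272, 0.106 and 0.262 CPM in treated Bbs2-/- fat, 1.34, 0.84, 0.749 and 1.13 CPM in untreated Bbs2-/- fat and 0.272, 0.338, 0.265 and 0.174 CPM in WT fat. The untreated libraries were well above all others, and the treated and WT libraries overlapped. On the log2 scale Klrb1c differed by 1.93 ± 0.42 (SE; adjusted p = 0.00347) over WT and -2.41 ± 0.42 (SE; adjusted p = 0.00114) with the inhibitor, and neither call was lost under an alternative that tested the gene. Klrb1c shares 413 exonic bases with the transcript Gm44511 on the same strand. Ncr1, which encodes NKp46, an activating receptor nearly confined to NK cells and related innate lymphoid cells, had 0.931, 0.817, 0.423 and 0.577 CPM in treated Bbs2-/- fat, 1.24, 2.87, 2.45 and 1.79 CPM in untreated Bbs2-/- fat and 1.2, 0.203, 0.199 and 1.28 CPM in WT fat. WT 1 and WT 4 lay at the level of untreated library 1, WT 2 and WT 3 far lower, and all treated libraries below all untreated ones. Its log2 fold changes were 1.51 ± 0.57 (SE; adjusted p = 0.0534) over WT, just above the threshold, and -1.59 ± 0.57 (SE; adjusted p = 0.0446) with the inhibitor, just below it. The first passed in DESeq2 and limma-voom (adjusted p = 0.0292 and 0.0211) and without WT 1 or WT 4 (0.0326 and 0.0351). Without the 4 libraries with Foxj1 RNA, WT 1 and WT 4 among them, it was 3.32 with an adjusted p of 0.00234. The second was lost on leaving out untreated 2, 3 or 4 or any treated library, with adjusted p-values between 0.0573 and 0.11, and with no filter on low counts (0.06). Klrk1, which encodes NKG2D, an activating receptor of NK cells and CD8 T cells, had 1.97, 1.63, 2.43 and 1.42 CPM in treated Bbs2-/- fat, 3.87, 4.1, 3.44 and 2.03 CPM in untreated Bbs2-/- fat and 1.42, 0.878, 0.531 and 1.45 CPM in WT fat. Its untreated libraries were above WT and overlapped the treated ones, with log2 fold changes of 1.64 ± 0.35 (SE; adjusted p = 0.00349) over WT and -0.85 ± 0.34 (SE; adjusted p = 0.0688) with the inhibitor. The second passed in DESeq2 (adjusted p = 0.0425) and without WT 3 or untreated library 4 (0.0438 and 0.0349).

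Among the cytotoxic effectors, Nkg7 was higher in untreated Bbs2-/- fat than in WT fat and Prf1 was lower with the inhibitor. Prf1 encodes perforin, which forms pores in target cells, and had 0.207, 0.0544, 0.265 and 0 CPM in treated Bbs2-/- fat, 0.567, 1.53, 1.15 and 0.567 CPM in untreated Bbs2-/- fat and 0.436, 0.203, 0.332 and 0.581 CPM in WT fat. The treated libraries were all below the untreated ones, and WT 4 reached the lowest untreated level. In counts, treated libraries held 4, 1, 5 and 0, untreated libraries 11, 31, 23 and 12, and WT libraries 8, 3, 5 and 10. Prf1 had log2 fold changes of 1.27 ± 0.62 (SE; adjusted p = 0.126) over WT and -2.79 ± 0.69 (SE; adjusted p = 0.00797) with the inhibitor, and the second call was not lost under any alternative that tested the gene. Nkg7, a membrane protein of cytotoxic granules, had 0.931, 0.817, 2.33 and 0.629 CPM in treated Bbs2-/- fat, 1.8, 3.75, 2.0 and 1.46 CPM in untreated Bbs2-/- fat and 0.708, 0.878, 0.332 and 0.988 CPM in WT fat. Its untreated libraries were above WT, and treated library 3 was within their range. Its log2 fold changes were 1.62 ± 0.49 (SE; adjusted p = 0.0205) and -0.93 ± 0.47 (SE; adjusted p = 0.141). The first was lost without WT 3 or untreated library 2 (adjusted p = 0.0566 and 0.0687) and without both WT 2 and WT 3 (0.126), and the second passed without treated library 3, at -1.5 and 0.0247.

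Gzma and Gzmb encode granzymes, the proteases that enter through the perforin pore. Gzma had 0, 0.0544, 0.953 and 0 CPM in treated Bbs2-/- fat, 0.825, 3.11, 2.35 and 1.04 CPM in untreated Bbs2-/- fat and 0.817, 0.203, 1.53 and 1.74 CPM in WT fat. Treated libraries 1, 2 and 4 were at or near 0 and treated library 3 was within the untreated range, while WT overlapped both. Gzma had log2 fold changes of 0.76 ± 0.97, adjusted p = 0.565 over WT and -2.83 ± 1.08, adjusted p = 0.0571 with the inhibitor. Without treated library 3 the second was -6.23 with an adjusted p of 0.00232, and DESeq2 and limma-voom called it with all libraries (adjusted p = 0.0242 and 0.015). Gzmb had 0.207, 0, 0.90 and 0.21 CPM in treated Bbs2-/- fat, 1.8, 1.98, 0.499 and 0.567 CPM in untreated Bbs2-/- fat and 0.599, 0.27, 0.265 and 0.814 CPM in WT fat. All 3 groups overlapped, with log2 fold changes of 1.29 ± 0.80, adjusted p = 0.223 over WT and -1.86 ± 0.82, adjusted p = 0.0945 with the inhibitor, and without treated library 3 the second was -3.05 with an adjusted p of 0.02. Ifng had 0 to 0.159 CPM in treated, 0.0472 to 0.150 CPM in untreated and 0 to 0.265 CPM in WT libraries, at most 4 counts, and no difference in it was detectable at this depth.

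Eomes and Tbx21 encode related T-box transcription factors of NK cells and cytotoxic T cells. Eomes had 0.103, 0.0544, 0 and 0.0525 CPM in treated Bbs2-/- fat, 0.515, 1.78, 0.749 and 0.567 CPM in untreated Bbs2-/- fat and 0.327, 0.0676, 0.133 and 0.0581 CPM in WT fat. The untreated libraries were above all others, with library 2 the highest, and the treated libraries held 2, 1, 0 and 1 counts. On the log2 scale Eomes differed by 2.54 ± 0.67 (SE; adjusted p = 0.0102) over WT and -3.93 ± 0.75 (SE; adjusted p = 0.00177) with the inhibitor. At such counts a fitted fold change depends on the small count added in the fit, so its size is uncertain. The call over WT was lost without WT 2 and WT 3 (adjusted p = 0.116), and the one with the inhibitor was not lost under any alternative that tested the gene. Tbx21, which encodes T-bet, had 0.673, 0.653, 1.69 and 0.839 CPM in treated Bbs2-/- fat, 0.464, 1.73, 0.898 and 1.56 CPM in untreated Bbs2-/- fat and 0.708, 0.946, 0.398 and 0.64 CPM in WT fat. Its 3 groups overlapped, and the log2 fold changes were 0.78 ± 0.48, adjusted p = 0.212 over WT and -0.27 ± 0.46, adjusted p = 0.684 with the inhibitor.

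Treated Bbs2-/- fat and WT fat were compared directly. None of the 30 members was called, by edgeR, DESeq2 or limma-voom, and 4 had an unadjusted p under 0.05 in edgeR (Trbc1, Il2ra, Il7r and Klrk1), with a lowest adjusted p of 0.335. Over all tested genes 0.257% were called in this comparison. The fitted log2 fold changes of the members ran between -2.07 and 1.18 with a median of 0.39 and standard errors of 0.182 to 1.079. That no member was called does not show that the groups had equal levels. The 7 receptor and CD3 chains were all positive, at 0.35 to 1.18, while 3 of the 4 tested cytotoxic effectors and 2 of the 3 NK receptors were negative.

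Sums over whole subclasses of members are given by library, without a test. The 7 T cell receptor and CD3 chains summed to 17.4, 17.2, 22.1 and 13.0 CPM in treated, 13.4, 19.1, 15.1 and 13.5 CPM in untreated and 12.3, 8.51, 16.9 and 11.5 CPM in WT libraries. All 3 groups overlapped, and the mean of the treated libraries, 17.4 CPM, was above that of the untreated libraries, 15.3 CPM. Cd247, whose exons overlap another gene, made up a large part of this sum in treated and WT libraries. The 6 chains without it summed to 6.62, 6.53, 10.96 and 4.04 CPM in treated, 9.43, 14.1, 10.6 and 8.78 CPM in untreated and 4.47, 3.72, 5.57 and 3.2 CPM in WT libraries. These untreated sums were above all WT sums, with treated library 3 inside the untreated range. The 3 NK receptors summed to 3.0, 2.72, 2.96 and 2.26 CPM in treated, 6.44, 7.81, 6.64 and 4.96 CPM in untreated and 2.89, 1.42, 0.995 and 2.91 CPM in WT libraries. All untreated sums were above all others, and treated and WT sums overlapped. The 5 cytotoxic effectors summed to 1.35, 1.03, 4.60 and 0.892 CPM in treated, 5.10, 10.5, 6.14 and 3.68 CPM in untreated and 2.56, 1.62, 2.72 and 4.13 CPM in WT libraries. Treated library 3 and WT 4 lay within the untreated range, and the other treated and WT libraries lay below it.

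**Figure D3:**
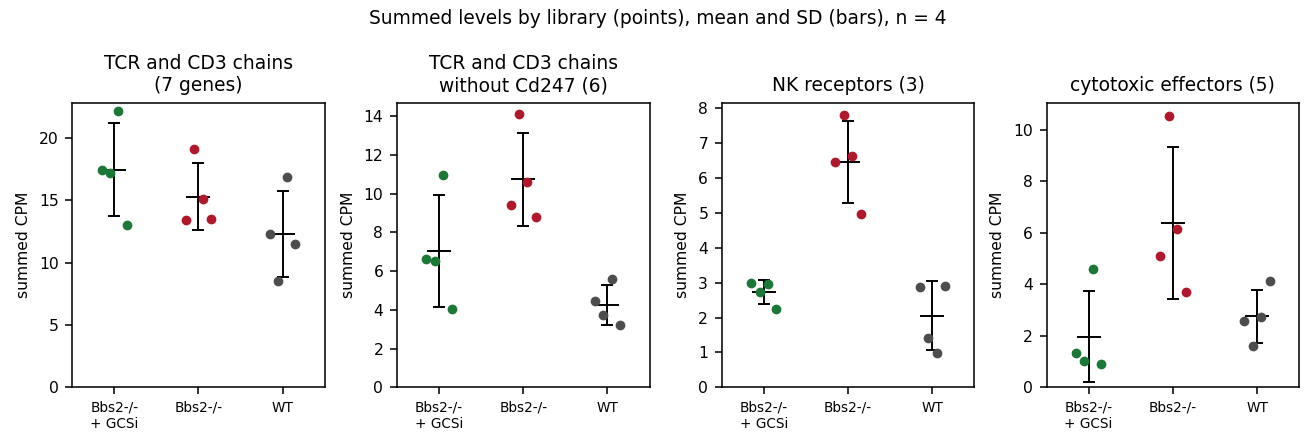
Summed CPM of the 7 T cell receptor and CD3 chains, of the 6 chains without Cd247, of the 3 NK receptors and of the 5 cytotoxic effectors in each library, with treated Bbs2-/-, untreated Bbs2-/- and WT from left to right and the mean and SD of 4 libraries as black bars. The NK receptor sums of the treated libraries (2.26 to 3.0 CPM) do not overlap those of the untreated libraries (4.96 to 7.81 CPM), whereas the sums of the 7 chains overlap (13.0 to 22.1 CPM in treated and 13.4 to 19.1 CPM in untreated libraries).

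Promoter sequences, 250 bases before to 50 bases after the start of the gene, were found in RefSeq (GRCm38.p6) for 23 of the 33 members. Each was searched on both strands for 8 motifs, of which TGTGGT, the core bound by Runx factors, was in 11 of the 23 (47.8%), against 18.9% of 27025 genes with a promoter of the same length. The 11 were Gzma, Gzmb, Il7r, Klrb1c, Klrk1, Lat, Lck, Ncr1, Nkg7, Prf1 and Zap70. Of the 7 members lower with the inhibitor, 6 had a promoter sequence, and 5 of these held the motif. ACAGGAAG, an Ets-type site, was in 5 (21.7%) against 4.06%, its core AGGAAG, which overlaps it, in 15 (65.2%) against 38.4%, and TATAAA in 3 (13.0%) against 15.7%. Of the overlapping T-box sites, GGTGTGA was in 1 promoter (4.35%) against 4.6% of all genes. The variant AGGTGTG was in 3 (13.0%) against 6.72%. Their shared core GGTGTG was in 4 (17.4%) against 21.4%, and the Stat-type palindrome TTCNNNGAA was in 6 (26.1%) against 9.55%. A match describes the sequence and is no evidence of binding. The promoters of Klrb1c, Prf1, Lat and Il7r, which were lower with the inhibitor under every alternative that tested them, and of Cd247, which was higher, are printed 5′ to 3′ on the gene's strand with TGTGGT or its reverse complement in capitals:
Klrb1c, chr6:128788592-128788891, minus strand: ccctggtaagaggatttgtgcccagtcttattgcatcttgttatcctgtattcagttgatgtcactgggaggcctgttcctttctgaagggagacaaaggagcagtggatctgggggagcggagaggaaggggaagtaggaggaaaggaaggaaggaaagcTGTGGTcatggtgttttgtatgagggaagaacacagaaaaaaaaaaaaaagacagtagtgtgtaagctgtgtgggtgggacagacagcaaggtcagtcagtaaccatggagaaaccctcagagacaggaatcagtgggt
Prf1, chr10:61297586-61297885, plus strand: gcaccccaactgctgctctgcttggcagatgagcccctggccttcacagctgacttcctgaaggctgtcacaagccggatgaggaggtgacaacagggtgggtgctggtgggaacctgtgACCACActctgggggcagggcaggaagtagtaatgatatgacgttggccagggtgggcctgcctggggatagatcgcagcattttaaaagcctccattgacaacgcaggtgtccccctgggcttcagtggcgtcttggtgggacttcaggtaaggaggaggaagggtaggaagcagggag
Lat, chr7:126369519-126369818, minus strand: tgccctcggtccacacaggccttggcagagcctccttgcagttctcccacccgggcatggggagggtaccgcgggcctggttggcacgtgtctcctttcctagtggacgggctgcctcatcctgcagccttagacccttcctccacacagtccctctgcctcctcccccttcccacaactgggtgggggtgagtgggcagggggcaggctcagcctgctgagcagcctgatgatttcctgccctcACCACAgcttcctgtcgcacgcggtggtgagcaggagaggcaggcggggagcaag
Il7r, chr15:9529827-9530126, minus strand: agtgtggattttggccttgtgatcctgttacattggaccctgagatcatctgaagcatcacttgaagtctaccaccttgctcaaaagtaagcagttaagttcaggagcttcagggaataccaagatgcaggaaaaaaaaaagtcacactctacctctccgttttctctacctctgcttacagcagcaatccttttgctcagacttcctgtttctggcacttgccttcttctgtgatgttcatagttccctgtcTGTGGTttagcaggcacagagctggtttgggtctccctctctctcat
Cd247, chr1:165788431-165788730, plus strand: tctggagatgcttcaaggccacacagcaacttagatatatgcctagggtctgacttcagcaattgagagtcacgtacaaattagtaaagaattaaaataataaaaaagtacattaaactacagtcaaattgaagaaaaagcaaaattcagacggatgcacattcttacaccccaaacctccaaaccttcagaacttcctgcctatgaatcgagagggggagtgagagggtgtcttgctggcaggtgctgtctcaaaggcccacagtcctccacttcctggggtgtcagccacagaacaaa
The motif began at -89 in Klrb1c, -130 in Prf1, -5 in Lat and 3 in Il7r, counted in bases from the start site at 0, and Cd247 had none in this window. The promoter of Eomes, which was also lower with the inhibitor under every alternative that tested it, held no TGTGGT on either strand and is not printed.

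A wider list of 62 other T, NK and innate lymphoid genes in the table, of which 42 could be tested, gave 17 higher and 2 lower (Lag3 and Klra4) in untreated Bbs2-/- fat over WT, and the median log2 fold change was 1.13. Those higher made up 40.5%, against 19.6% of all tested genes. With the inhibitor 14 were lower, or 33.3% against 18.8% of all tested genes, and Lag3 was higher, with a median of -0.69. Klrd1, called in both comparisons, passed the filter on low counts only because of the untreated libraries, where it was high. The same holds for Themis, described below, so these shares are not independent of the differences. Ubash3b, Themis and Ly9 were among the 4 with the smallest p over WT. Ly9, a SLAM-family receptor of lymphocytes, had 6.42, 5.12, 4.18 and 1.89 CPM in treated Bbs2-/- fat, 58.8, 47, 48 and 38.8 CPM in untreated Bbs2-/- fat and 12.3, 5.07, 2.06 and 2.67 CPM in WT fat. All its untreated libraries were above all others. These levels were far above those of Cd3e in the same libraries, 0.519 to 2.87 CPM, and the part of macrophages or other cells in them was not tested. Its log2 fold change was 3.11 ± 0.52 (SE; adjusted p = 0.000956) over WT and -3.45 ± 0.53 (SE; adjusted p = 0.000599) with the inhibitor. Ubash3b, a phosphatase that dampens T cell receptor signalling, changed by 2.06 ± 0.30, adjusted p = 0.000356 over WT and by -1.95 ± 0.29, adjusted p = 0.000472 with the inhibitor. The part of other cell types in the Ubash3b difference was not tested either. Themis, a T cell receptor signalling protein needed for thymocyte selection, had 0.207, 0.381, 0.847 and 0.0525 CPM in treated Bbs2-/- fat, 2.58, 1.68, 1.7 and 2.27 CPM in untreated Bbs2-/- fat and 0.163, 0, 0.133 and 0.0581 CPM in WT fat. WT 2 was at 0 and the others held at most 3 counts, so its log2 fold change of 4.40 ± 0.75 (SE; adjusted p = 0.000949) over WT is uncertain in size. Themis also passed the filter on low counts only because of the untreated libraries, where it was high. The receptor for interleukin-33, Il1rl1, found on innate lymphoid cells, mast cells and regulatory T cells, was among the 4 smallest p-values with the inhibitor, at -1.85 ± 0.28 (SE; adjusted p = 0.000465).

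In the direct comparison of treated Bbs2-/- with WT fat none of the 42 was called. The 4 with the smallest p were Gata3, Grap2, Themis and Cxcr3, at log2 fold changes of -3.04 ± 1.08, adjusted p = 0.344, 0.98 ± 0.37, adjusted p = 0.374, 1.96 ± 0.79, adjusted p = 0.405 and 0.70 ± 0.28, adjusted p = 0.407. Gata3, a transcription factor of type 2 lymphocytes that several epithelia also express, stood at 25.9 CPM in WT 1, against 0.523 to 1.68 CPM in the other 11 libraries. Grap2 is an adaptor that binds Lat, and Cxcr3 is the receptor of the chemokines Cxcl9 and Cxcl10. Gzmk, a granzyme of effector memory CD8 T cells named after its values were seen, had 0.258, 0.840, 0.349 and 0.189 CPM in untreated Bbs2-/- libraries and no count in the 8 others. Set against a floor of 3 counts over a group, its 33 counts would be 8.9-fold higher than in WT and 10.3-fold higher than in treated fat. Of these counts 17 lay in untreated library 2, and Gzmk was too low for the test. Other genes of the list too low to test were not uniform. Tigit and Klrc1 were highest in the untreated libraries, Gzmm overlapped between the groups, and Cd40lg had its highest mean in treated fat.

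Signals that attract, feed or engage T and NK cells were followed in a list of 18 tested genes. In untreated Bbs2-/- fat over WT 9 of the 18 were higher, against 19.6% of all tested genes, and none was lower, with a median log2 fold change of 0.57. With the inhibitor 11 were lower, which is 61.1% against 18.8% of all tested genes, and Cd274 was higher, with a median of -0.66. Cxcl16, the ligand of the T and NK cell receptor Cxcr6, had 22.5, 17, 14.1 and 10.8 CPM in treated Bbs2-/- fat, 52.4, 59.6, 42.2 and 82.1 CPM in untreated Bbs2-/- fat and 21.2, 18.4, 14.5 and 13.9 CPM in WT fat. Il33, an alarmin of stromal cells that sustains regulatory T cells and type 2 innate lymphoid cells in fat, had 3.98, 4.19, 3.44 and 7.24 CPM in treated Bbs2-/- fat, 12.8, 19.3, 12.3 and 20.4 CPM in untreated Bbs2-/- fat and 3.59, 3.99, 4.45 and 5.17 CPM in WT fat. Untreated libraries were above all others for both genes. The log2 fold changes were 1.80 ± 0.25 (SE; adjusted p = 0.000322) and -1.88 ± 0.25 (SE; adjusted p = 0.000272) for Cxcl16 and 1.91 ± 0.26 (SE; adjusted p = 0.00025) and -1.78 ± 0.26 (SE; adjusted p = 0.000358) for Il33, over WT and with the inhibitor. Cxcl10, which draws Cxcr3-positive cells, and the MHC class II chain H2-Aa were also among the 4 smallest p-values over WT, at 2.38 ± 0.34, adjusted p = 0.000328 and 1.79 ± 0.33, adjusted p = 0.00141. Cd80, a ligand of Cd28 and Ctla4, and H2-Aa changed by -1.67 ± 0.34, adjusted p = 0.00251 and -1.67 ± 0.32, adjusted p = 0.00215 with the inhibitor.

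Cd274, which encodes PD-L1, the ligand of the inhibitory T cell receptor PD-1, followed a different order. It had 51.8, 47.5, 39 and 29.7 CPM in treated Bbs2-/- fat, 28.7, 24.6, 23.2 and 19.7 CPM in untreated Bbs2-/- fat and 19.1, 17.4, 26.5 and 18.7 CPM in WT fat. All treated libraries were above all others, and untreated and WT libraries overlapped. The log2 fold changes were 0.23 ± 0.19, adjusted p = 0.346 for untreated over WT, 0.81 ± 0.19, adjusted p = 0.00537 for treated over untreated and 1.04 ± 0.19, adjusted p = 0.0485 for treated over WT. The last is at the threshold, and leaving out any 1 library other than treated 4 ended it, with adjusted p-values between 0.0551 and 0.184. The next smallest p-values of the list over WT were those of H2-D1, Cxcl10 and H2-K1, at -0.56 ± 0.12, adjusted p = 0.109, 0.95 ± 0.33, adjusted p = 0.327 and -0.38 ± 0.18, adjusted p = 0.475. H2-D1 was called without WT 1 (adjusted p = 0.0405) and by DESeq2 (0.000411). H2-D1 and H2-K1 encode closely related MHC class I chains, whose reads may be shared.

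Markers of other cell types moved with the T and NK cell genes. Over WT, 11 of 12 macrophage, 7 of 8 B and plasma cell and 5 of 6 mast cell markers were higher in untreated Bbs2-/- fat, and 7 of 8 adipocyte markers were lower. With the inhibitor 11 macrophage, 4 B and plasma cell and 5 mast cell markers were lower and 7 adipocyte markers higher. Of all tested genes, 19.6% were called higher and 19.7% lower over WT, and 18.5% higher and 18.8% lower with the inhibitor. Macrophage markers, led by Adgre1 and Cd68, summed to 502 to 1249 CPM in treated, 4860 to 6411 CPM in untreated and 594 to 1751 CPM in WT libraries. Per 1000 CPM of these, the receptor and CD3 chains without Cd247 were 5.30 to 17.1 in treated, 1.37 to 2.61 in untreated and 2.55 to 9.38 in WT libraries. The untreated values lay below all treated ones and overlapped those of WT, since untreated library 2 was above WT 1. B and plasma cell markers, Ms4a1 among them but without Ighm, which made up most of the full sum, came to 19.3 to 128 CPM in treated, 289 to 455 CPM in untreated and 11.2 to 33.1 CPM in WT libraries. The highest treated value belonged to library 3, the one with the most T cell receptor RNA among the treated libraries. Mast cell markers, with Cpa3 and Mcpt4, summed to 15.5 to 23.8 CPM in treated, 36.8 to 164.6 CPM in untreated and 16.4 to 31.5 CPM in WT libraries, the highest in untreated library 1. The part of these cell types in the T and NK cell differences was not tested.

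**Figure D4:**
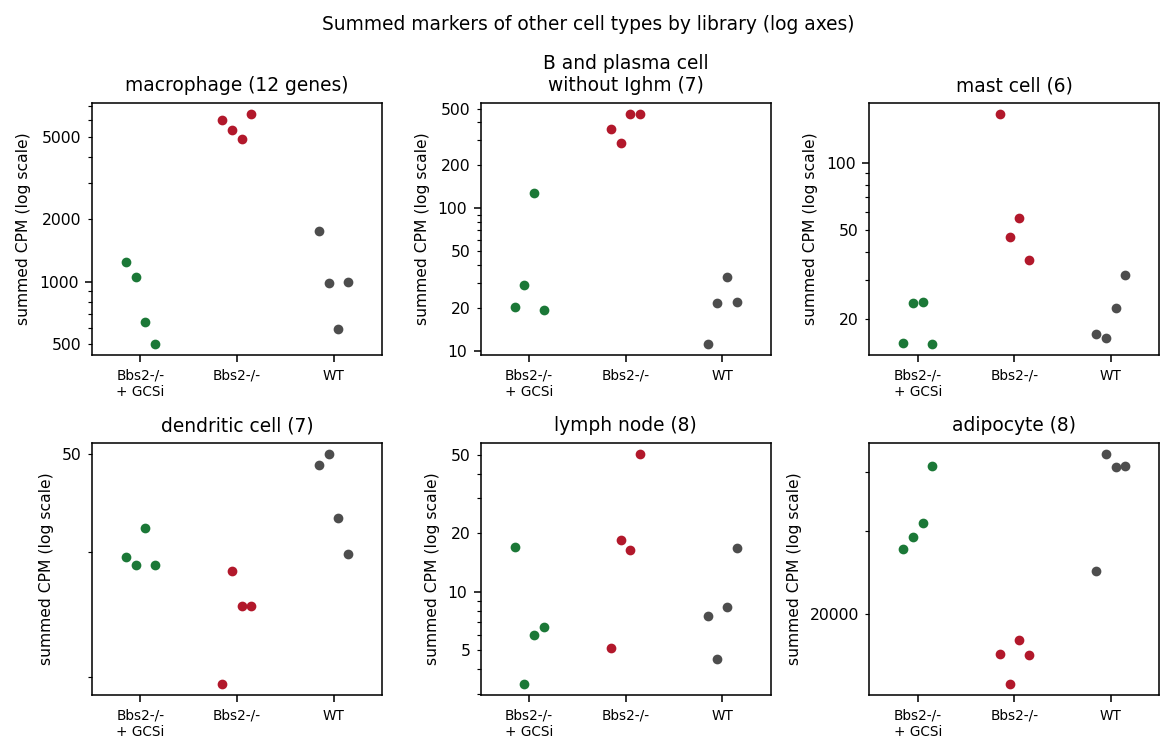
Summed CPM of marker lists for 6 other cell types or tissues in each library, on log axes, with treated Bbs2-/-, untreated Bbs2-/- and WT from left to right. Macrophage, B and plasma cell and mast cell sums are highest in all 4 untreated libraries, adipocyte sums are lowest there, and lymph node sums overlap between the groups.

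Markers of lymph node stroma and follicles gave no common direction. Of 8 genes, 5 could be tested, with Cxcl13 higher and Chst4 lower over WT and Cr2 lower with the inhibitor. Their sums were 3.38 to 16.8 CPM in treated, 5.15 to 50.2 CPM in untreated and 4.53 to 16.6 CPM in WT libraries. Of the defining genes of lymph node vessels, Glycam1 was at 0 counts in 10 of 12 libraries with at most 4 counts, and Madcam1 was at 0 in 3 with at most 5. Dendritic cell markers, with Flt3 and Zbtb46, summed to 39.8 ± 1.64 CPM in treated, 34.6 ± 3.65 CPM in untreated and 45.5 ± 4.80 CPM in WT libraries (SD, n = 4 each), with 1 higher (Ccr7) and 1 lower (Zbtb46) of 7 over WT and Zbtb46 higher with the inhibitor. For neutrophils, S100a8 and S100a9 were the 2 of 6 markers that could be tested, both higher over WT and S100a8 lower with the inhibitor, while Ly6g was at 0 in 9 libraries. The list of type 2 innate lymphoid cell genes, which shares Il1rl1 and Gata3 with the wider lymphocyte list, summed to 33.2 to 44.0 CPM in treated, 48.0 to 68.3 CPM in untreated and 39.7 to 72.7 CPM in WT libraries, and of its 3 tested genes Il1rl1 was called in both comparisons.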

How the data were processed

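Adipose tissue RNA was isolated with TRIzol and RNeasy columns and made into TruSeq Stranded mRNA libraries, per the labels' protocols. The authors made and deposited a table of estimated counts per gene without scaling, with totals of 16317865 to 20224200 per library. They also deposited log2 normalized FPKM values, whose upper quartile is 3.96 in each library. The submitters' processing notes name the build mm10. The labels do not name the aligner, the counting tool or its strand setting, so overlapping genes and close paralogs are uncertain.

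Symbols and coordinates came from the GENCODE mouse annotation of the same build, which named 52207 of 53431 identifiers. After rounding of the expected counts, edgeR 4.0.16 (R 4.3.3) was used (TMM scaling, filterByExpr by group, robust quasi-likelihood fit of all 12 libraries with group as the only term). P-values of each of 3 contrasts were adjusted over 15968 genes, with a threshold of 0.05, and no p was adjusted within a list. CPM are counts per 1e6 of the TMM-scaled library size. The procedure was also run on simulated counts in which few genes were changed. That setting is unlike these data, and its outcome is not used here. Promoters came from RefSeq tables, searched in Python 3.11.15.

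All 33 members are described. Of the lists of other T and NK cell genes and of attracting signals, the 4 tested genes with the smallest p in each contrast are named, and of marker lists the sum and the first 2 genes. A few genes that this rule names are not reported here. Called genes of other lists are also named where a count was small, after their values were seen. The members and lists were chosen with earlier results of these data known. Within a group every pair of libraries differed beyond sampling noise (chi-square over degrees of freedom of 16.9 to 84.9). Alternatives were other scalings, filters, tests (DESeq2 1.42.0, limma 3.58.1), a replicate block and left-out libraries.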

Additional observations from a re-analysis of the deposited data

Results flagged for a closer look

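In 8 of 99 sets of 4 libraries, 1 per member and group, the highest library stood apart from the others beyond the 95% limit of Dixon's test for 4 values. Chance alone separates about 1 in 20 such sets. Of the 8, 5 fell in treated library 3, which held 2.75 CPM of Cd8a (next highest treated value 0.599), 1.53 CPM of Cd8b1 (next 0.367), 2.59 CPM of Lat (next 1.19), 0.529 CPM of Ctla4 (next 0.157) and 0.953 CPM of Gzma (next 0.0544). Those values rest on 52, 29, 49, 10 and 18 counts. Untreated Bbs2-/- library 2 held 3.06 CPM of Cd3g, against 1.75 CPM in the next untreated library. WT 2 held 0.608 CPM of Trbc1, or 9 counts, against 0.407 CPM in the next WT library, and WT 1 held 4.96 CPM of Il2rb, against 2.99 CPM.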

How the results depend on the processing

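The 4 calls over WT of Trac, Lat, Klrb1c and Klrk1 and the 6 with the inhibitor of Cd247, Lat, Il7r, Klrb1c, Prf1 and Eomes held under all alternatives that tested them. Trac, Klrb1c, Prf1 and Eomes passed the main filter on low counts only because of the untreated libraries, where they were high. Their entry to the test was thus not independent of these differences. Over WT, 14 members were called, 10 to 17 on leaving out 1 library, 15 with a replicate block and 7 without WT 2 and WT 3. With the inhibitor 8 were called, 6 to 12 on leaving out 1 library, 9 with the block, 5 with a minimum of 1 CPM in 4 libraries and 16 without the 4 libraries with Foxj1 RNA. The number of all genes called with the inhibitor in that last setting is not given here. The replicate numbers were not taken as pairs, since no comparison had all 4 same-numbered pairs correlated above 0.1: 0 of 4 (-0.0214 to 0.0164) for untreated against WT, 3 of 4 (0.0999 to 0.308) for treated against untreated, where 3 of 4 libraries correlated best with their own number, and 1 of 4 (-0.149 to 0.278) for treated against WT. With the block, Cd4 was called over WT (adjusted p = 0.011), and with the inhibitor Cd4 (0.0339) and Gzma (0.0347) were called and Ncr1 (0.0588) was not. Treated against WT, 0 members were called under every alternative. Of the wider lymphocyte list 19 were called over WT, 16 to 20 on leaving out 1 library, 11 without WT 2 and WT 3 and 7 on log2 FPKM with a mean of at least 1; with the inhibitor the counts were 15, 11 to 16, and 7 on that scale. Of all genes, 6263 were called over WT (4951 to 7212 on leaving out 1 library, 3417 without WT 2 and WT 3), 5947 with the inhibitor (4614 to 6611) and 41 for treated against WT (3 to 49), where DESeq2 gave 275, the 2 groups alone 2, the block 9, no WT 2 and WT 3 1 and no libraries with Foxj1 RNA 2. The causes were not tested, beyond the fewer libraries or genes of some settings. Signs changed only in members that were not called: Cd2 over WT (0.06; -0.26 without the libraries with Foxj1 RNA, and -0.154 to 0.52 on leaving out 1 library), Foxp3 over WT (-0.13; 0.086 with library size alone, 0.152 in limma-voom, 0.002 with the block, 1.05 without WT 2 and WT 3, but -0.80 without the libraries with Foxj1 RNA, and -0.421 to 0.247 on leaving out 1 library), and, with the inhibitor and 1 library left out, Cd3e (-0.66 to 0.107), Cd8a (-1.73 to 0.277), Cd6 (-0.68 to 0.008) and Il2ra (-0.241 to 0.01). With library size alone 18 members were higher and 1 lower over WT. The number of all genes called with that scaling is not given here, so the gain in members cannot be set against it. Counts under 20 limit what can be seen in 19 of the 33 members.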
